A study of Rattus norvegicus with 30 samples.

Results

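The promoters of 6 activity-regulated genes were followed in a rat study of chronic traumatic brain injury (TBI): the immediate early genes Fos, Jun, Junb, Egr1 and Arc, and Bdnf. They are set by gene name, with no threshold on a measured value, and each had 1 promoter window among the 22307 windows (20196 gene identifiers) of each deposited table. The identifiers are ENSRNOG00000008015 (Fos), ENSRNOG00000026293 (Jun), ENSRNOG00000042838 (Junb), ENSRNOG00000019422 (Egr1), ENSRNOG00000043465 (Arc) and ENSRNOG00000047466 (Bdnf), and the tables themselves hold identifiers without symbols or positions. Methylated DNA was captured with a methyl-CpG binding domain protein and sequenced (MBD-seq) in 10 adult male Sprague-Dawley rats, 5 with lateral fluid-percussion TBI and 5 sham-operated, which went through anaesthesia and the same surgery without the impact. All were killed 3 months after the operation, and the perilesional cortex, the ipsilateral hippocampus (the dentate gyrus, with CA3) and the ipsilateral thalamus of each rat gave 1 library each, 30 in all. Rats 1 to 5 were sham and rats 6 to 10 TBI.

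Immediate early genes are transcribed within minutes of synaptic activity, without new protein synthesis, through factors such as CREB and SRF that wait at their promoters. Fos, Jun and Junb encode subunits of the AP-1 transcription factor, Egr1 encodes a zinc finger transcription factor, and Arc encodes a synaptic protein that promotes AMPA receptor endocytosis. Bdnf encodes a secreted neurotrophin that signals through the TrkB receptor, and its many alternative 5′ exons each have a promoter of their own, some of them activity-dependent. Methyl-CpG binding at a promoter is commonly linked to silencing, and CpG-rich promoters are mostly unmethylated in brain.

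RefSeq promoter sequences (build GRCr8, 250 bases before to 50 after the start site) were at hand for 3 of the 6 genes, Junb, Egr1 and Bdnf. They are shown because CpG sites are what the capture protein binds, and every CpG is written in capitals. The counts were made on another build (Rnor_5.0), over windows from 5000 bases before to 200 after a start site, so each sequence stands for a small stretch near a start and not for the whole window. Which of the Bdnf starts the counted window belongs to is not given in the sources used here. Of the 6 Bdnf windows, the one at the first start and the one with the most CpG sites are printed.
Egr1, chr18:26736828-26737127, plus strand: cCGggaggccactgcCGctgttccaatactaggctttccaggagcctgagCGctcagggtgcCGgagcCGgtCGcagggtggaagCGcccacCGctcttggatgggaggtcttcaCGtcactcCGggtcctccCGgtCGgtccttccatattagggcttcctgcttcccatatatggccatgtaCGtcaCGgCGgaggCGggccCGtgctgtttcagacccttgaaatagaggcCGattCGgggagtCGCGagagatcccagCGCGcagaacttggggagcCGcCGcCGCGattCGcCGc
Junb, chr19:40080876-40081175, plus strand: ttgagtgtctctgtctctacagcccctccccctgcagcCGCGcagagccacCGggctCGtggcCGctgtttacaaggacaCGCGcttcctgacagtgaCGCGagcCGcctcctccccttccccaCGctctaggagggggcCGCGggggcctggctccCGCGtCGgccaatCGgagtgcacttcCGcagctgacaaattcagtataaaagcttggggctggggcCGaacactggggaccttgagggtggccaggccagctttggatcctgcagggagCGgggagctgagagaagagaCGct
Bdnf, first start, chr3:116619383-116619682, plus strand: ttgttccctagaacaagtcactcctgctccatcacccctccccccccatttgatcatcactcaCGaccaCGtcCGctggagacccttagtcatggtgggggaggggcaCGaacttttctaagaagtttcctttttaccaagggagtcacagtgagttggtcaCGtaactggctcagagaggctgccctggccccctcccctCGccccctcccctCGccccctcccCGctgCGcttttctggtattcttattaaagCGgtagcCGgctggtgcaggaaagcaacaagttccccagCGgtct
Bdnf, start with the most CpG sites, chr3:116637608-116637907, plus strand: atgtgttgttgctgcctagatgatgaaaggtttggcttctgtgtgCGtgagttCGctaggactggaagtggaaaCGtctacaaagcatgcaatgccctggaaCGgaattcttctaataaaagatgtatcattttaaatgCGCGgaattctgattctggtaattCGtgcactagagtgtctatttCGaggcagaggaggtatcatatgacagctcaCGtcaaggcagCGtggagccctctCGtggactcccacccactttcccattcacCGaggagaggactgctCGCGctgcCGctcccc
The Egr1 stretch held 29 CpG sites and the Junb stretch 21, against a median of 7 over the 33469 RefSeq promoters of the same length. Observed over expected CpG was 0.925 for Egr1 and 0.656 for Junb, and the median of all promoters was 0.392. The 6 Bdnf stretches, spread over 20525 bases, held 4 to 15 CpG sites. Their observed over expected CpG ran from 0.304 to 0.804, and the highest, that of the stretch with the most CpG sites, was above Junb.

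Letters known from activity-regulated promoters were searched on both strands. The short CRE TGACG, bound by CREB, occurred in 21.2% of all RefSeq promoters. It was present at 2 places in Egr1 (135 and 66 bases before the start), at 1 in Junb (155 bases before) and at 1 in the CpG-richest Bdnf stretch (35 bases before). The CArG box, bound by SRF, occurred in 1.64% of all promoters and at 2 places in Egr1 (105 and 83 bases before the start). The full CRE TGACGTCA, which contains the short one and occurs in 1.83% of promoters, was in none of the 8 stretches of the 3 genes. Of the AP-1 site TGANTCA (7.33% of promoters) 1 match was found, in another Bdnf stretch, and the EGR site (GCGTGGGCG or GCGGGGGCG, 3.20%) had none. These matches describe letters only.

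Promoter counts per library summed to 1862708 to 3992056 in cortex, 1430875 to 2440662 in hippocampus and 2675177 to 4227800 in thalamus. Values are given below as CPM, counts brought to a common library size, with TMM scaling over the 30 libraries. As all windows have the same length, CPM can also be set side by side between genes. The value follows the density of methylated CpG as well as its share, and in bulk tissue a change in methylation within cells and a change in the mix of cells cannot be told apart. Each library was correlated with the mean profile of its tissue, computed without it and without 7 libraries set apart beforehand. Those 7 libraries had the lowest values (log2 CPM across 19943 identifiers, a description across genes that are not independent). These are cortex rats 1, 4, 6 and 10 (r 0.741 to 0.913, against 0.956 to 0.970 in the other 6), hippocampus rats 5 and 9 (0.858 and 0.942, against 0.954 to 0.976 in the other 8) and thalamus rat 6 (0.926, against 0.970 to 0.983 in the other 9). An earlier analysis of these data had set these 7 libraries apart. Every mean left them out, so their low values are in part built in. Of the 7, the libraries labelled cortex rat 4 and rat 6 correlated better with the hippocampus mean (0.968 and 0.963) than with the cortex mean, and the library labelled hippocampus rat 5 correlated better with the cortex mean (0.961). Tissue identity could not be checked against marker genes, because the identifiers are not paired with symbols. Results are given with and without these 7 libraries.

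Of the 5 immediate early gene promoters, those of Fos, Jun, Junb and Arc lay in the lower part of each tissue's promoters. Egr1 lay in the lower part in cortex and thalamus and near the middle in hippocampus, and the Bdnf promoter lay in the upper part. By mean CPM on library totals, the Arc window ranked above 9.65% of all windows in cortex, 10.1% in hippocampus and 13.3% in thalamus. Jun ranked at 9.14%, 16.9% and 9.49%, and Junb at 20.9%, 28.1% and 25.8%. These low ranks were shared by Fos, at 31.1%, 24.8% and 26.5%. Egr1 stood highest of the 5, at 39.4% in cortex, 49.4% in hippocampus and 36.6% in thalamus. Bdnf ranked at 83.8%, 85.5% and 80.5%. In single libraries, Jun, Junb and Arc were under the median window in 30 of 30, Fos in 29 and Egr1 in 23, whereas Bdnf was above it in 30 of 30. The exception for Fos was cortex rat 10 (58.6%), the library in which Bdnf had its lowest rank (55.7%). The median rank of the 6 promoters was 26.0% in cortex, 26.5% in hippocampus and 26.1% in thalamus, where 50% is the middle of all windows.

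**Figure D1:**
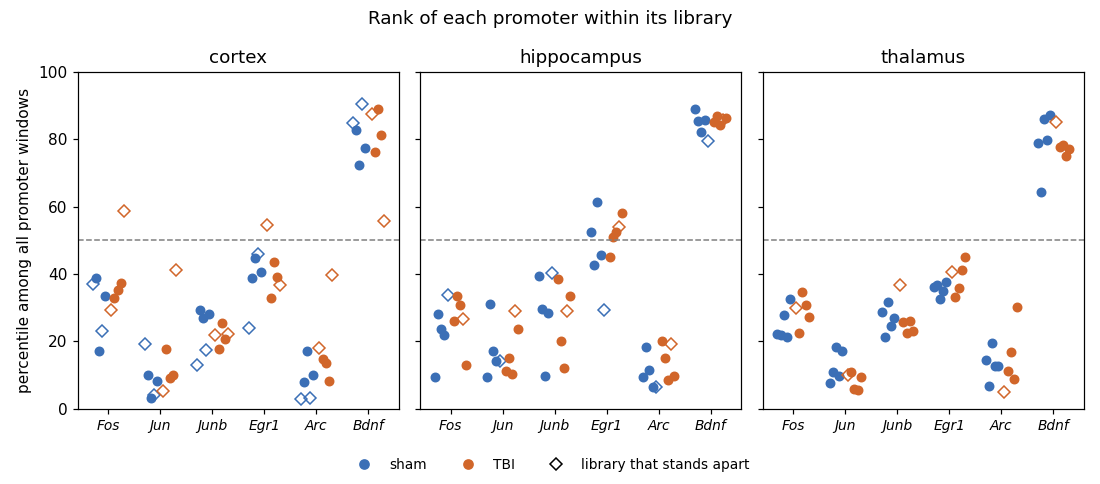
Percentile of each promoter among all windows of its library (vertical axis), by gene (horizontal axis) and tissue, with 5 sham (blue) and 5 TBI (orange) libraries each and the libraries that stand apart as open diamonds. Bdnf is above the dashed line at 50 in all 30 libraries, and Jun, Junb and Arc are below it in all 30.

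The order of the levels was only partly resolved by the spread between rats. Bdnf exceeded Egr1 in 10 of 10 rats in each tissue with no overlap of the ranges, the ratio of mean CPM being 2.31 in cortex, 3.01 in hippocampus and 2.49 in thalamus. In cortex Egr1 (22.6 ± 2.71 CPM, SD, n = 10) was followed by Fos (19.0 ± 5.76), Junb (14.8 ± 3.62), Arc (10.7 ± 5.63) and Jun (10.5 ± 6.66). Egr1 was above Fos in 6 of 10 rats and Arc above Jun in 4 of 10, so these neighbours did not differ beyond their spread, whereas Fos was above Junb and Junb above Arc in 9 of 10. In hippocampus the order was Egr1 (25.0 ± 5.67), Junb (12.5 ± 5.66), Fos (10.9 ± 4.19), Jun (8.10 ± 3.86) and Arc (6.21 ± 2.42). There Egr1 was above Junb in 9 of 10 rats, and each later gene was above the next in 6 or 7 of 10, with overlapping ranges. In thalamus Egr1 (20.6 ± 2.02) exceeded Fos (15.4 ± 2.26) in 10 of 10 rats, Fos and Junb (15.3 ± 1.56) were level with Fos higher in 5 of 10, and Arc (9.00 ± 4.25) and Jun (7.29 ± 2.37) came last.

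The comparison of TBI with sham asked whether methylation at these promoters differed 3 months after injury. None of the 6 promoters passed the test in any tissue, and the levels of the 5 TBI and 5 sham libraries overlapped for every gene in every tissue. The edgeR quasi-likelihood test with Benjamini-Hochberg adjustment called 0 of 22110 windows in cortex (0%), 0 of 20017 in hippocampus (0%) and 0 of 21894 in thalamus (0%). At an unadjusted p under 0.05 these were 171, 570 and 198 windows, with none of the 6 promoters among them. In each tissue this is fewer windows than an even spread of p-values would give, so the test was cautious on these libraries. Without the libraries that stand apart the windows numbered 1411, 603 and 1267, again with no member among them. With DESeq2 the calls were again 0 in each tissue. An exact test on library totals, with a single dispersion for all windows, called 7 windows in cortex, 156 in hippocampus and 0 in thalamus, and none of the 6 promoters was among these either. Arc in hippocampus was not tested, since its counts (5 to 23) were under the count filter.

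In cortex Fos was at 23.3, 21.2, 11.9, 10.9 and 19.4 CPM in sham rats 1 to 5 and at 12.9, 19.0, 20.4, 21.7 and 29.7 CPM in TBI rats 6 to 10. The groups overlapped, with 1 TBI library above the highest sham library. The log2 fold change was 0.24 (SE 0.26, 95% interval -0.30 to 0.78, edgeR adjusted p = 1), and without rat 10 it was 0.093. Arc was at 8.58, 8.14, 11.9, 3.63 and 9.24 CPM in sham and at 8.43, 11.1, 11.2, 9.00 and 25.3 CPM in TBI cortex. Only rat 10 lay above the sham range. The log2 fold change of Arc, 0.62 (SE 0.37, interval -0.17 to 1.40, edgeR adjusted p = 1), was the highest of the 6 in cortex, and without rat 10 it was 0.25.

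Jun in cortex ranged from 4.15 to 17.2 CPM in sham and from 3.97 to 25.6 CPM in TBI rats, again with rat 10 highest, and its log2 fold change was 0.46 (interval -0.49 to 1.42). Without rat 10 it was 0.025, without rat 6 it was 0.67 and without rat 1 it was 0.85. The other cortex values were nearer to 0: 0.10 for Egr1 (interval -0.27 to 0.47), -0.01 for Junb (-0.57 to 0.55) and -0.10 for Bdnf (-0.71 to 0.50). Bdnf was at 44.1, 51.3, 40.8, 89.2 and 44.4 CPM in sham and at 76.8, 43.7, 56.5, 46.6 and 29.0 CPM in TBI cortex. The highest library of each group (rats 4 and 6) was one of those closer to the hippocampus mean. Leaving out the 4 cortex libraries that stand apart turned the log2 fold changes of Bdnf to 0.11 and of Egr1 to -0.05, with 0 windows called. Fos was then at 0.22, Jun at 0.50, Junb at -0.20 and Arc at 0.099.

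In hippocampus the log2 fold changes were -0.02 for Fos (interval -0.78 to 0.74), -0.04 for Jun (-0.91 to 0.84), -0.22 for Junb (-1.07 to 0.63), 0.18 for Egr1 (-0.27 to 0.62) and 0.07 for Bdnf (-0.29 to 0.43). Bdnf was at 95.4, 66.4, 71.2, 87.9 and 48.7 CPM in sham and at 73.0, 88.4, 77.1, 67.2 and 76.6 CPM in TBI rats, and the TBI values all lay within the sham range. Arc was at 3.52 to 9.30 CPM in sham and 3.80 to 10.4 CPM in TBI hippocampus (exact permutation test, two-sided p = 0.595, 252 assignments of 5 and 5 libraries). Without rats 5 and 9 the log2 fold changes were 0.20 for Fos, -0.02 for Junb, 0.05 for Egr1 and -0.02 for Bdnf, with 0 windows called, and Jun and Arc were under the count filter.

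In thalamus Jun was at 6.31, 8.25, 11.0, 7.58 and 8.88 CPM in sham and at 3.06, 9.63, 5.20, 5.25 and 7.65 CPM in TBI rats. By CPM, 3 of the TBI libraries lay below the lowest sham library and the other 2 within the sham range. The log2 fold change was -0.44 (SE 0.31, interval -1.10 to 0.22, edgeR adjusted p = 1), and the exact two-sided permutation test gave p = 0.127 where the smallest possible is 0.0079. Rat 6, the thalamus library that stands apart, was the lowest of the 10 by CPM. By rank within the library it was at 9.95%, inside the sham range of 7.73% to 18.2%. Only TBI rats 8 and 9 (5.72% and 5.45%) lay below that range. The other log2 fold changes were 0.17 for Fos (-0.20 to 0.54), 0.01 for Junb (-0.34 to 0.37), 0.13 for Egr1 (-0.17 to 0.42), 0.13 for Arc (-0.73 to 1.00) and -0.03 for Bdnf (-0.39 to 0.34). Arc ran from 1.36 CPM (4 counts, rat 6) to 17.6 CPM (rat 10) within the TBI group, while the sham libraries stayed between 5.94 and 11.6 CPM. Without rat 6 the log2 fold changes were 0.39 for Arc, -0.29 for Jun, 0.25 for Fos, 0.17 for Egr1, -0.19 for Bdnf and -0.01 for Junb, with 0 windows called. Without rat 10 Arc was at -0.22.

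**Figure D2:**
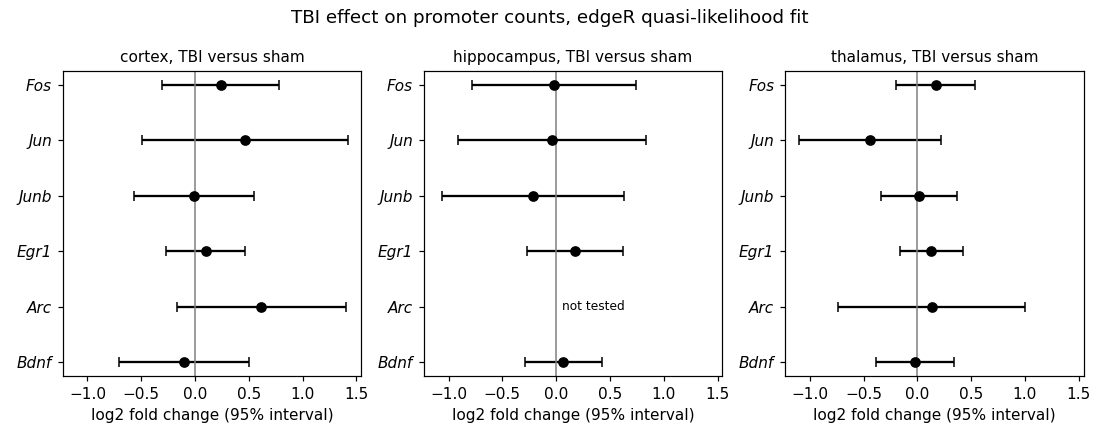
Log2 fold change of TBI over sham (horizontal axis, points) with 95% intervals (bars) for each promoter in the 3 tissues, from the edgeR quasi-likelihood fit on 5 and 5 libraries. All 17 intervals contain 0, and the widest is that of Jun in cortex (-0.49 to 1.42).

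These intervals give the range of changes compatible with the counts. For Egr1 they reached from -0.27 to 0.62 on the log2 scale at most over the 3 tissues, whereas for Jun they ran from -1.10 to 1.42. Within groups of 5 the coefficient of variation ran from 5.48% (Egr1, thalamus sham) to 66.4% (Jun, cortex TBI), and counting error alone would give 7.38% to 31.9% over all groups and 17.6% for Jun in cortex TBI. In 5 of 36 groups the spread was below counting error. A test of whether the TBI effect differed between tissues (interaction term, edgeR) called 0% of the rows in each of the 3 pairs, the rows at an unadjusted p under 0.05 numbering 316, 165 and 352, and for the members the unadjusted p ran from 0.123 to 0.994. The lowest was that of Jun between thalamus and cortex (-0.94 on the log2 scale, SE 0.59, edgeR adjusted p = 1). When each rat was left out this value ran from -1.43 without rat 1 (edgeR unadjusted p = 0.026, adjusted p = 1) to -0.57 without rat 10. DESeq2 was not run for the interaction.

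**Figure D3:**
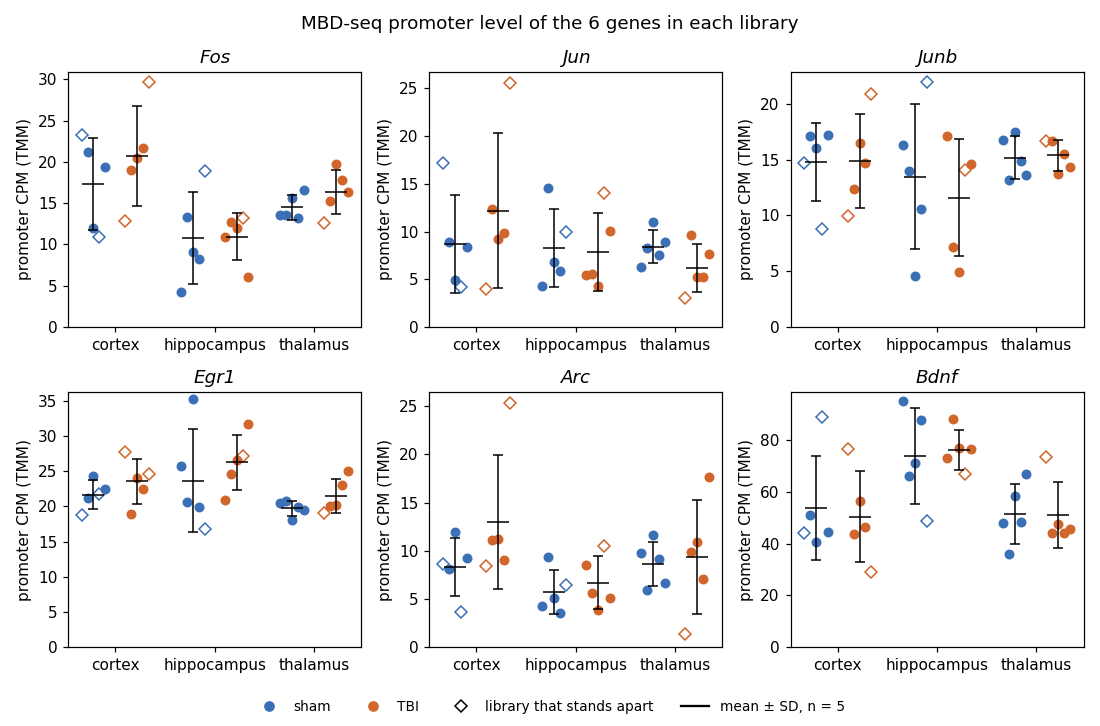
TMM-scaled promoter CPM (vertical axis, each panel its own scale from 0) of every library by tissue, 5 sham (blue) and 5 TBI (orange), with mean ± SD of each group in black and libraries that stand apart as open diamonds. Sham and TBI points overlap in every panel and tissue, and the lowest Fos and highest Bdnf means are those of hippocampus.

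With TMM scaling and all libraries, the Fos and Bdnf promoters were called in both comparisons with hippocampus, in opposite directions. Most identifiers were called in these comparisons as well, and 0 members were called in sham rats alone. Against cortex, Fos was lower in hippocampus (10.9 ± 4.19 against 19.0 ± 5.76 CPM, the same 10 rats in each), with a log2 fold change of -0.74 (SE 0.22, edgeR adjusted p = 0.0069). Arc was lower by a similar size, -0.70 (SE 0.27, edgeR adjusted p = 0.029), at 6.21 ± 2.42 against 10.7 ± 5.63 CPM. Bdnf was higher, 75.2 ± 13.4 against 52.3 ± 17.9 CPM, with a log2 fold change of 0.56 (SE 0.18, edgeR adjusted p = 0.010). The 3 calls of 6 stand against 57.2% of all 20004 identifiers called (29.6% higher and 27.5% lower), so the share of members called was near the background. Jun (-0.28, interval -0.93 to 0.37), Junb (-0.20, -0.69 to 0.29) and Egr1 (0.18, -0.09 to 0.45) did not pass.

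Within rats, Fos was lower in hippocampus than in cortex in 10 of 10, Bdnf was higher in 8 of 10, and Arc was lower in 7 of 10. By rank within the library, which needs no scaling, Fos was lower in 7 of 10 rats, Bdnf higher in 7 of 10, and Arc lower in 4 of 10. Single libraries ran for Fos from 4.30 to 19.0 CPM (median 11.4) in hippocampus and from 10.9 to 29.7 CPM (median 19.9) in cortex. The ranges overlapped through cortex rats 3, 4 and 6, at 10.9 to 12.9 CPM, and through hippocampus rat 5, at 19.0 CPM. For Bdnf they ran from 48.7 to 95.4 CPM (median 74.8) and from 29.0 to 89.2 CPM (median 45.5), and again cortex rats 4 and 6 (89.2 and 76.8 CPM) and hippocampus rat 5 (48.7 CPM) lay at the far ends.

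Without the libraries that stand apart, 4 of the 6 promoters were called between hippocampus (8 libraries) and cortex (6 libraries), beside 69.8% of all identifiers. The libraries left out were those least like their own tissue's mean, and this choice by itself tends to widen tissue differences and lower the p-values. The edgeR log2 fold changes were then -1.04 for Fos (SE 0.21, adjusted p = 4.9e-05), -0.91 for Arc (SE 0.24, adjusted p = 0.0014), -0.57 for Junb (SE 0.23, adjusted p = 0.030) and 0.69 for Bdnf (SE 0.11, adjusted p = 1.7e-06). Junb went the other way by rank within the library, being higher in hippocampus than in cortex in 8 of 10 rats. By mean CPM on totals without those libraries, Junb ranked at 23.9% in cortex and 26.6% in hippocampus. Its call therefore rests on the scaling between libraries. In the 5 sham rats alone, 0 members and 2 of 19803 identifiers (0.0101%) were called. These libraries include cortex rat 4 and hippocampus rat 5, each closer to the mean of the other tissue, and cortex rat 1, which stands apart. Their part in the fall of the calls was not tested. The values for Fos (-0.64) and Bdnf (0.44) kept their sign in the sham rats. Arc lost its call when rat 1, 3, 7, 8 or 10 was left out (edgeR adjusted p 0.053 to 0.085), whereas Fos and Bdnf kept theirs in all 10 such fits.

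Scaling bears on these directions. Scaling by library totals in place of TMM moved the median of all identifiers by -0.33 on the log2 scale between hippocampus and cortex, and the calls went from 51.8% higher to 17.9% higher. Bdnf then stood at 0.22 (edgeR adjusted p = 0.28) and was not called, Fos (-1.03) and Arc (-0.99) were called beside 50.8% of all identifiers, and Egr1 turned to -0.16. Relative to the median of all identifiers the values hardly moved: 0.58 (TMM) and 0.57 (totals) for Bdnf, -0.72 and -0.68 for Fos, -0.68 and -0.64 for Arc, and 0.21 and 0.20 for Egr1.

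Thalamus against hippocampus, which uses the same hippocampus libraries, gave Bdnf lower in thalamus (51.3 ± 11.6 CPM, log2 fold change -0.49, SE 0.12, edgeR adjusted p = 0.0013) and Fos higher (15.4 ± 2.26 CPM, 0.53, SE 0.19, edgeR adjusted p = 0.022). The background was 60.1% of 19877 identifiers called (31.8% higher, 28.3% lower). Fos was higher in thalamus in 9 of 10 rats by CPM but in 6 of 10 by rank within the library, and Bdnf was lower in 8 of 10 by CPM and 7 of 10 by rank. Fos lost its call without rat 3, 4, 8 or 10 (edgeR adjusted p 0.060 to 0.067). Without the libraries that stand apart 5 members passed, beside 72.1% of all identifiers: Bdnf at -0.69, Egr1 at -0.30, Fos at 0.75, Junb at 0.49 and Arc at 0.85 (edgeR adjusted p 2.3e-07, 0.034, 0.00028, 0.028 and 0.0027). These p-values, too, follow a choice of libraries by their likeness to their own tissue. By rank within the library, Junb was higher in thalamus than in hippocampus in only 3 of 10 rats, against the direction of its call. With all libraries Arc was at 0.58 (edgeR adjusted p = 0.10), Junb at 0.32 (0.20), Egr1 at -0.22 (0.11) and Jun at -0.15 (0.64). Leaving out rat 6 brought Arc past the threshold (edgeR adjusted p = 0.014), and leaving out rat 4 or 5 did so for Egr1 (0.044 and 0.019). In the sham rats alone 0 members were called, beside 32.4% of all identifiers. Library totals moved the median of all identifiers by 0.25, with 72.7% of calls higher in place of 52.9%. On totals Bdnf stood at -0.24, Fos at 0.76 and Arc at 0.85, all 3 called beside 59.3% of all identifiers, while Egr1 turned to 0.04 and Jun to 0.10.

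Thalamus against cortex gave no call among the 6 promoters, beside 19.6% of 20087 identifiers. Bdnf was at 51.3 ± 11.6 CPM in thalamus and 52.3 ± 17.9 CPM in cortex (log2 fold change -0.01, interval -0.35 to 0.33). The largest values were those of Jun (-0.53, interval -1.16 to 0.10) and Fos (-0.30, interval -0.62 to 0.02), and none of the 17 alternatives brought a member past the threshold. With the rat as a block all calls rose from 3943 to 5583, while the 6 promoters stayed uncalled. Each tissue has its own table, and the study's methods give another sequencer for thalamus than for the other tissues while the labels name 1 instrument, so tissue cannot be told apart from a sequencing run.

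**Figure D4:**
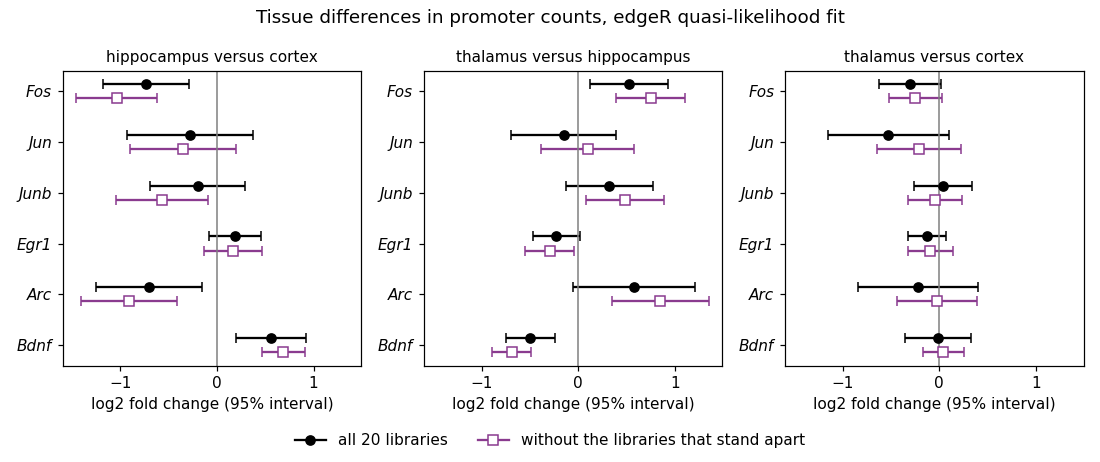
Log2 fold change between tissues (horizontal axis, points) with 95% intervals (bars) from the edgeR quasi-likelihood fit, for all 20 libraries (filled circles) and without the libraries that stand apart (open squares). Fos and Bdnf lie on opposite sides of 0 in both comparisons with hippocampus, and near 0 or overlapping it between thalamus and cortex.

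Since both promoters are counted in the same library, the Bdnf count per Fos count needs no scaling. This ratio was chosen after the values had been seen and is given as a description. In cortex it was 1.89, 2.42, 3.41, 8.19 and 2.30 in sham rats 1 to 5 and 5.96, 2.30, 2.76, 2.15 and 0.977 in TBI rats 6 to 10. Rats 4 and 6 stood above the other 8. In hippocampus it was 22.2, 5.00, 7.81, 10.7 and 2.57 in sham rats and 6.71, 6.94, 6.45, 5.10 and 12.7 in TBI rats. Here rat 5 was alone below 5. In thalamus it was 3.53, 2.66, 3.74, 3.64 and 4.02 in sham rats and 5.86, 2.89, 2.42, 2.47 and 2.80 in TBI rats, with rat 6 highest. Without the libraries that stand apart the ratio ran from 2.15 to 3.41 in cortex, from 5.00 to 22.2 in hippocampus and from 2.42 to 4.02 in thalamus, and those left out had been picked for being least like their own tissue's mean. With all 10 libraries a tissue, the range of hippocampus (2.57 to 22.2) overlapped those of cortex (0.977 to 8.19) and thalamus (2.42 to 5.86). The highest ratio rests on 5 Fos counts (hippocampus rat 1). With the sum of Fos, Jun, Junb and Arc as denominator the ranges without those libraries were 0.797 to 0.986 in cortex, 1.30 to 3.26 in hippocampus and 0.817 to 1.46 in thalamus. With all 10 libraries a tissue these ranges overlapped, at 0.286 to 3.25 in cortex, 0.850 to 3.26 in hippocampus and 0.817 to 2.19 in thalamus.

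**Figure D5:**
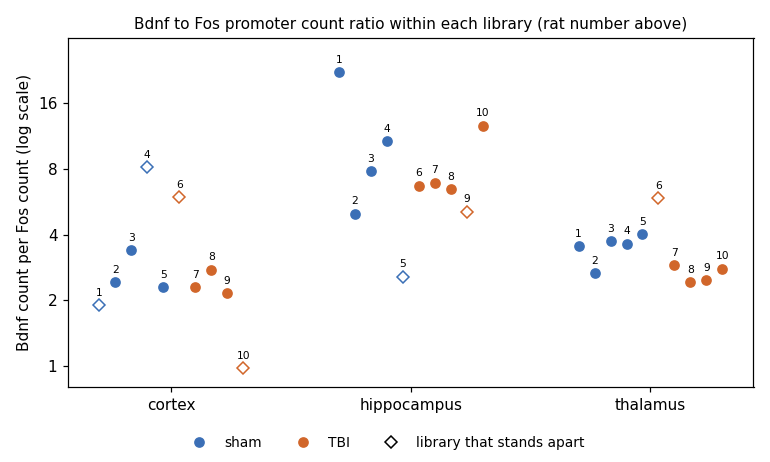
Bdnf promoter count divided by Fos promoter count in each library (vertical axis, log scale, rat number above each point), by tissue, with sham in blue, TBI in orange and libraries that stand apart as open diamonds. Cortex rats 4 and 6 (8.19 and 5.96) lie among the hippocampus values, and hippocampus rat 5 (2.57) lies among the cortex values.

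The deposited gene body tables gave almost nothing for these genes. Over the 180 pairs of gene and library the count was 1 in 6 pairs and 0 in the others, so no comparison was made there. The tables' gene body region for each identifier is not described in the sources used here.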

How the data were processed

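MBD-seq libraries from 3 brain regions of 10 rats were analysed from the promoter and gene body tables, whose values are raw counts of reads per region and library, deposited by the authors without normalization. Per the labels and the study's methods, the authors mapped reads to Rnor_5.0 with STAR without splicing and counted them with Repitools in R 3.1.0. Exon tables were not used, and RNA-seq was not analysed here. No column was left unassigned (0). Counting was per read without molecular identifiers, so counting errors cover sampling only.

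Windows were tested within each tissue, and identifiers (windows summed) between tissues, with edgeR 4.0.16 (R 4.3.3): TMM, filterByExpr (minimum 10, total 15), quasi-likelihood F test, two-sided, Benjamini-Hochberg adjustment over all rows, threshold 0.05. This differs from the authors' blocksStats test, for which the exact test with a single dispersion was run as a stand-in. At an FDR under 0.05 the study reported changed promoter methylation in cortex and hippocampus and none in thalamus. Its pyrosequencing of chosen genes did not bear out the MBD-seq changes. Intervals are 95%. DESeq2 1.42.0, limma 3.58.1 and the other alternatives are given in the closing section. Groups came from the labels, and rats are separate animals. The fits were tested on simulated counts with a single dispersion for all rows and no libraries that stand apart. That setting is simpler than these data and does not cover such libraries. The members, the lists and the libraries set apart were chosen with earlier results of these data known. All 6 members are reported by rule. Lists of further pathway genes, and the search for identifiers of similar pattern, gave no names, since no table used here pairs these identifiers with symbols.

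The 3 regions of one rat share an animal, so rat numbers pair them. The main tissue fits held treatment (sham or TBI) as an added term and no rat block, so they did not use this pairing. A fit with the rat as a block was an alternative. Same-rat deviations correlated at a median r of 0.032 (hippocampus and cortex), 0.117 (thalamus and cortex) and -0.054 (thalamus and hippocampus), with r over 0.1 in 2, 5 and 3 of 10 rats.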

Additional observations from a re-analysis of the deposited data

Results flagged for a closer look

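In the 36 groups of 5 libraries (6 promoters, 3 tissues, 2 treatments), 3 libraries lay farther from the other 4 than Dixon's 95% criterion (0.71 of the range) allows. Chance flags about 1 in 20 groups, here about 1.8. The Arc promoter was at 25.3 CPM in cortex TBI rat 10, with the other 4 at 8.43 to 11.2 CPM. Bdnf was at 89.2 CPM in cortex sham rat 4, with the other 4 at 40.8 to 51.3 CPM. It was at 73.7 CPM in thalamus TBI rat 6, where the other 4 were at 44.1 to 47.6 CPM. All 3 are libraries that stand apart over all identifiers, and the part of that in these values was not tested.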

How the results depend on the processing

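Of 281 alternative values for TBI versus sham in single promoters, 238 kept their direction and none passed the threshold, and 43 changed sign, most from values near 0. With voom quality weights the sign changed in cortex for Egr1 (-0.034) and Bdnf (0.027), in hippocampus for Fos (0.28), Jun (0.056), Junb (0.22) and Bdnf (-0.026), and in thalamus for Junb (-0.044). Without the libraries that stand apart it changed in cortex for Egr1 (-0.048) and Bdnf (0.11), in hippocampus for Fos (0.20) and Bdnf (-0.019), and in thalamus for Junb (-0.014). Junb in cortex was 0.0067 with DESeq2 and 0.0077 with at least 10 counts in every library, and in thalamus -0.058 on library totals and -0.060 with an exact test that used 1 common dispersion and library totals. Leaving out each rat in turn gave ranges across 0 for Junb (-0.15 to 0.090) and Bdnf (-0.31 to 0.15) in cortex, for Fos (-0.19 to 0.32), Jun (-0.39 to 0.25), Junb (-0.44 to 0.092) and Bdnf (-0.048 to 0.17) in hippocampus, and for Junb (-0.032 to 0.071), Arc (-0.22 to 0.39) and Bdnf (-0.19 to 0.081) in thalamus. That exact test called 7 windows in cortex and 156 in hippocampus, none of them a member. Arc in hippocampus could be fitted with every window kept (0.24).

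Between tissues 266 of 306 alternative values kept direction and call, 16 changed sign, 15 lost and 9 gained a call. Egr1 turned to -0.16 (hippocampus versus cortex) and 0.044 (thalamus versus hippocampus) on library totals. Jun, thalamus versus hippocampus, turned to 0.096 on library totals, 0.039 in sham rats and 0.098 without the libraries that stand apart (each rat left out: -0.31 to 0.0013). For thalamus versus cortex, Junb was -0.050 and Bdnf 0.041 without those libraries (each rat left out: -0.021 to 0.13 and -0.093 to 0.11), Arc 0.045 in sham rats, and Bdnf 0.015 with the replicate block. The number of members called between hippocampus and cortex was 3, and 0 in sham rats, where 2 identifiers in all were called. Between thalamus and hippocampus it was 2, with 0 in sham rats (6350 identifiers), 5 without the libraries that stand apart and 1 to 3 when each rat was left out. For thalamus versus cortex 1700 identifiers were called on library totals and 1226 in sham rats. The rat as replicate block changed no member's call (3, 0 and 2 called). Leaving out samples also lowers the number of libraries, and the causes of the other changes were not tested. The median rank of the 6 promoters stayed within 25.2% to 29.4% over its 5 alternatives and 3 tissues. Counts in the lowest library were 4 for Arc and 5 for Jun and for Fos. No alternative gave a paired fit for TBI versus sham, since the groups hold different rats.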
